A study of Mus musculus with 96 samples.

Results

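The ErbB receptors and their EGF-like ligands were followed along the mouse nephron. The set held the receptor genes Egfr, Erbb2, Erbb3 and Erbb4 and the ligand genes Egf, Tgfa, Hbegf, Areg, Btc and Nrg1, chosen by symbol, so 10 of the 54532 genes in the deposited table. A gene was tested if it reached 1 TPM in at least 3 mice, which 33793 genes and 9 of these 10 did; Areg did not. TPM is a transcript abundance corrected for transcript length, so levels of different genes can be set side by side within a sample. Glomeruli and pieces of tubule were dissected by hand from kidneys of male C57BL/6 mice aged 6 to 8 weeks and kept on normal chow, with no treatment or genetic change in any group. The glomerulus (GL) formed 1 group and tubule segments the other 14. The proximal tubule was sampled in its initial convolution (PTS1), its cortical straight stretch (PTS2) and its last stretch, in the outer stripe (PTS3). Descending thin limbs came from short loops (DTL1) and from long loops, in outer (DTL2) or inner medulla (DTL3). ATL is the thin limb that ascends, and MTAL and CTAL are its thick continuation, first in medulla and then in cortex. Next come the distal convolution (DCT), the tubule connecting it to the ducts (CNT), and collecting ducts taken in cortex (CCD), outer medulla (OMCD) or inner medulla (IMCD). The 93 samples formed 53 combinations of mouse number and segment, each counted as 1 mouse of its group. There were 5 mice in CCD, CTAL and PTS2, 4 in OMCD and ATL, and 3 in each of the remaining groups. Pieces of 1 mouse were averaged. Values are means ± SD over mice.

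The 4 ErbB proteins are receptor tyrosine kinases that signal as pairs. Erbb2 binds no known ligand and serves as a partner of the others, and Erbb3 has little kinase activity of its own. Egf, Tgfa and Areg bind Egfr, Hbegf and Btc bind both Egfr and Erbb4, and the neuregulins, of which Nrg1 is 1, bind Erbb3 and Erbb4. The ligands are made as membrane proteins and are released by metalloproteases such as Adam10 and Adam17. In the kidney, Egf is known as a product of the distal nephron that stimulates magnesium uptake through the channel Trpm6, and Egfr as a receptor of tubule growth and repair.

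Promoter windows from RefSeq (GRCm38.p6) were available for 7 of the 10 genes. The 250 bases before the annotated start are printed for the ligands Egf and Btc, each highest in a single stretch of tubule, and for Egfr, which was detected in every group. They read 5′ to 3′ on the gene's strand, and capitals mark a match to a searched motif.
Egf promoter (chr3:129755323-129755572, minus strand): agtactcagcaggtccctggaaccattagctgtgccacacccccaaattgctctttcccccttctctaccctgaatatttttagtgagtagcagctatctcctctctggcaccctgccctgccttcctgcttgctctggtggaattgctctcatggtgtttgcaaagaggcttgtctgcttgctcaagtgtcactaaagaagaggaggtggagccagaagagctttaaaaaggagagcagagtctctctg
Btc promoter (chr5:91402995-91403244, minus strand): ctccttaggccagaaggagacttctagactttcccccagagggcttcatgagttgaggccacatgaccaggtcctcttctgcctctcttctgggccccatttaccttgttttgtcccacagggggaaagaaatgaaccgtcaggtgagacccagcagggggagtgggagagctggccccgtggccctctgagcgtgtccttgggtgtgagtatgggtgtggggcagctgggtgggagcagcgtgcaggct
Egfr promoter (chr11:16751953-16752202, plus strand): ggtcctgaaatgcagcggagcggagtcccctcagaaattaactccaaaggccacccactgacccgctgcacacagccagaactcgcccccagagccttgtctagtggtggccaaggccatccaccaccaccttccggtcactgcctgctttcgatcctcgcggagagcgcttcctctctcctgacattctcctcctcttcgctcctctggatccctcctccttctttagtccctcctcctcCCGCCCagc
The Egf window is that of the upstream start. Exons of Egf overlap those of the non-coding gene 6330410L21Rik on the other strand. RefSeq lists a second, downstream Egf start (window from 129725087 to 129725336, ratio 0.895, with 127 bases in Egf exons). Of the 9 Egf transcripts in GENCODE, 0 hold the first bases after the upstream RefSeq start, since the nearest begin 6 bases further in, and 2 hold those after the downstream start. Within 10 bases, 3 transcripts begin at each of them. Gene-level values do not say which start was used. The upstream window held no CG pair, an observed over expected CpG ratio of 0. The ratio was 0.184 for Btc and 0.551 for Egfr. It was 0.631 for Erbb2, 0.635 for Tgfa, 0.675 for Erbb4 and 0.742 for Areg. Over all 32851 promoter windows of this length the median was 0.374, with quartiles of 0.167 and 0.723, so the upstream Egf window lay below the lower quartile and Btc just above it. The motifs searched on both strands were the TATA box TATAAA (in 12.4% of all windows), the GC box GGGCGG (32.7%), the CCAAT box CCAAT (33.8%), the AP-1 site TGACTCA (4.46%), the cyclic AMP element TGACGTCA (1.55%), the estrogen-related receptor element TCAAGGTCA (0.387%) and the HNF1 site (0.0609%). Neither Egf window nor that of Btc had a match. Egfr had 1 GC box, Tgfa had 2, Erbb2 had a CCAAT box, and Areg had a TATA box, a GC box and a cyclic AMP element. A match or its absence is a description of these letters in this window.

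Podocyte markers were highest in GL, and thick limb markers in MTAL and CTAL. Summed podocyte markers (5 genes) were 8982 to 10579 TPM in GL and at most 95.2 TPM elsewhere. Summed thick limb markers (5 genes, with Umod and Slc12a1) were 23315 to 47613 TPM in MTAL and CTAL, and at most 4093 TPM in any other mouse. Some groups carried a low broad signal. Of 1459 odorant and vomeronasal receptor genes, which tubules are not expected to use, the number at 1 TPM or more was 636 to 746 in DTL1, 316 to 730 in GL, 405 to 449 in DTL3, 221 to 306 in DTL2, 59 to 195 in OMCD, and at most 19 in PTS, MTAL, CTAL, DCT, CNT, CCD and IMCD mice. ATL divided into mouse 2 with 23 and mouse 3 with 15 such genes, against 517 in mouse 4 and 588 in mouse 6. Some members lay within this signal. For Btc, 72.9% of the odorant genes were at or above its mean in GL, 38.9% in ATL, 22.7% in DTL1 and 18.6% in DTL3. That share was 6.37% for Erbb4 and 4.11% for Nrg1 in GL, and 4.32% for Tgfa in ATL. The part of this signal in the results was not tested. Endothelial markers (8 genes summed) were 5028 to 5374 TPM in GL and 3037 to 4073 TPM in DTL1, against 27.6 to 2128 TPM in the other groups. Stromal markers (8 genes) were 542.6 to 743 TPM in GL and at most 80.8 TPM elsewhere, and erythroid markers (5 genes) 193 to 554.5 TPM in GL, 0.145 to 78.4 TPM in CTAL and at most 6.995 TPM elsewhere. Leukocyte markers (8 genes) were 525 to 1102 TPM in CTAL, 625 to 910 TPM in GL and 358 to 642 TPM in MTAL, against 5.31 to 584 TPM in the other groups. Since these are bulk samples, fewer cells of a type and less RNA per cell cannot be told apart in any level below.

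All 9 tested genes differed among the 15 groups by limma's moderated F-test, with Benjamini-Hochberg adjusted p from 2.62e-35 for Egf to 3.60e-08 for Erbb3. That test passed for 93.9% of all genes. A gene was called higher in 1 group than in every other if its log2(TPM + 1) exceeded that of each other group by at least 1 with an adjusted p under 0.05 (intersection-union test). This held in some group for 8.8% of all genes and for 3 of the 9 members. They were Egf in CTAL (0.0651% of all genes were called there), Btc in OMCD (0.148%) and Tgfa in GL (3.22%). No receptor met it (0 of 4). The highest group mean was 10.5 times the lowest for Erbb3, 14.9 for Erbb2, 18.4 for Hbegf, 23.9 for Nrg1, 39.2 for Egfr, 442 for Tgfa and 28299 for Egf, as the heat map of group means shows.

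**Figure D1:**
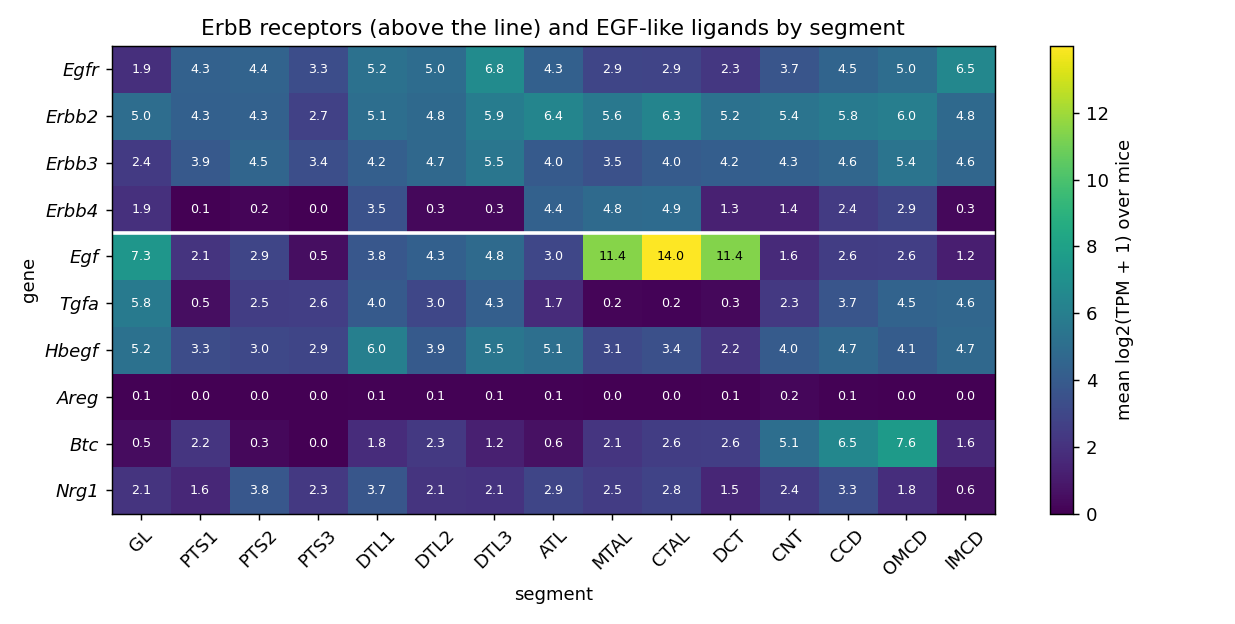
Mean log2(TPM + 1) over mice for the 4 receptors and 6 ligands (rows) in the 15 groups (columns), with the value in each cell. Egf reached 14.0 in CTAL and 11.4 in MTAL and DCT, Btc rose from CNT to 7.6 in OMCD, and Erbb4 was near 0 in the proximal tubule, DTL2, DTL3 and IMCD.

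Egfr, the receptor for Egf and Tgfa, was highest in the inner medulla. Its level in DTL3 mice was 88.4, 124.1 and 111.3 TPM (107.9 ± 18.0) and in IMCD mice 52.6, 117.3 and 121.6 TPM (97.2 ± 38.6). IMCD mouse 1 lay below all DTL3 mice, while the other 2 IMCD mice lay within their range, and the groups did not separate (log2 difference 0.25, SE 0.24, adjusted p = 0.38 by limma). The next group, DTL1, lay at 36.0 ± 5.9 TPM and was lower than IMCD by 1.31 log2 units (SE 0.24, adjusted p = 6.05e-06). OMCD, DTL2, CCD, PTS2, PTS1 and ATL followed with means of 19.3 to 31.1 TPM, and no neighbours in that order of log2 level differed by a called amount. ATL was uneven, with 17.4, 34.6, 11.1 and 16.7 TPM. The lowest tubule groups were the 3 with the highest Egf. MTAL mice had 6.70, 7.39 and 6.10 TPM, CTAL mice 5.68 to 7.19 with a median of 6.57 TPM, and DCT mice 3.99, 3.26 and 4.15 TPM. All 11 of these mice lay below every IMCD, OMCD and CCD mouse. IMCD exceeded CTAL by 3.61 log2 units (SE 0.21, adjusted p = 3.81e-19). GL was lowest, at 3.00, 3.10 and 2.15 TPM, with 6.99% of the odorant genes at or above its mean there.

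Erbb2, the ligandless partner, was present in every mouse and had the flattest profile after Erbb3. ATL (101.9, 94.9, 54.5 and 88.8 TPM) and CTAL (73.1 to 83.7, median 80.6 TPM) led. The CTAL mice were close together, at 79.8 ± 4.1 TPM, and lay inside the ATL range. Every group from OMCD (63.6 ± 5.0 TPM) down to PTS1 (19.4 ± 4.5 TPM) did not differ by a called amount from the next in order. PTS3 stood apart at 7.54, 4.26 and 5.37 TPM, and was lower than PTS2 by 1.65 log2 units (SE 0.24, adjusted p = 1.09e-06). The exons of Erbb2 overlap those of Mien1 on the opposite strand, whose group mean reached 619 TPM in IMCD, where Erbb2 was 27.6 ± 6.5 TPM. Whether strand was used in the counting is not given in the sources used here, so reads in the overlap cannot be told apart.

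Erbb3, the neuregulin receptor that needs a partner, was highest in DTL3, at 42.7, 49.1 and 43.1 TPM, and in OMCD, at 39.7, 40.7, 41.4 and 42.3 TPM. These ranges did not overlap, but the difference of 0.13 log2 units was not called (SE 0.37, adjusted p = 0.834). DTL1 was split, with 32.0 and 35.5 TPM in mice 1 and 3 and 4.62 TPM in mouse 5. That mouse was also lowest of the 3 for Erbb2 (14.96 against 52.8 and 44.6 TPM) and Erbb4 (2.97 against 15.6 and 22.4 TPM), while its Egfr was the highest of the 3 (40.8 TPM). Its summed thin limb markers were 4655 TPM against 10468 and 9212 TPM in the others, and its summed odorant genes 3622 TPM against 2275 and 2257 TPM. The part of these in its receptor levels was not tested. The lowest Erbb3 was in GL, at 3.15, 5.35 and 4.35 TPM, below every mouse of every other group except DTL1 mouse 5.

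Erbb4, the receptor shared by Hbegf, Btc and the neuregulins, was highest in CTAL (21.7 to 36.6, median 30.8 TPM), MTAL (34.2, 28.0 and 23.1 TPM) and ATL (10.5, 25.3, 24.8 and 22.6 TPM), with no called step between them. DTL1 followed at 13.6 ± 9.8 TPM, then OMCD at 6.71 ± 0.56 TPM and CCD at 4.57 ± 1.52 TPM. GL, CNT and DCT lay between 1.53 and 2.93 TPM. PTS1, PTS2, DTL2, DTL3 and IMCD were at or under 0.274 TPM on average, and all 3 PTS3 mice were listed at 0. Of the odorant genes 61.6% in DTL2 and 72.8% in DTL3 lay at or above Erbb4, so its level there was within that background. The drop from CTAL to DCT was 3.65 log2 units (SE 0.30, adjusted p = 1.61e-13) and the rise from DTL3 to ATL 4.05 (SE 0.31, adjusted p = 1.83e-14), and in both the mice of the 2 groups did not overlap.

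**Figure D2:**
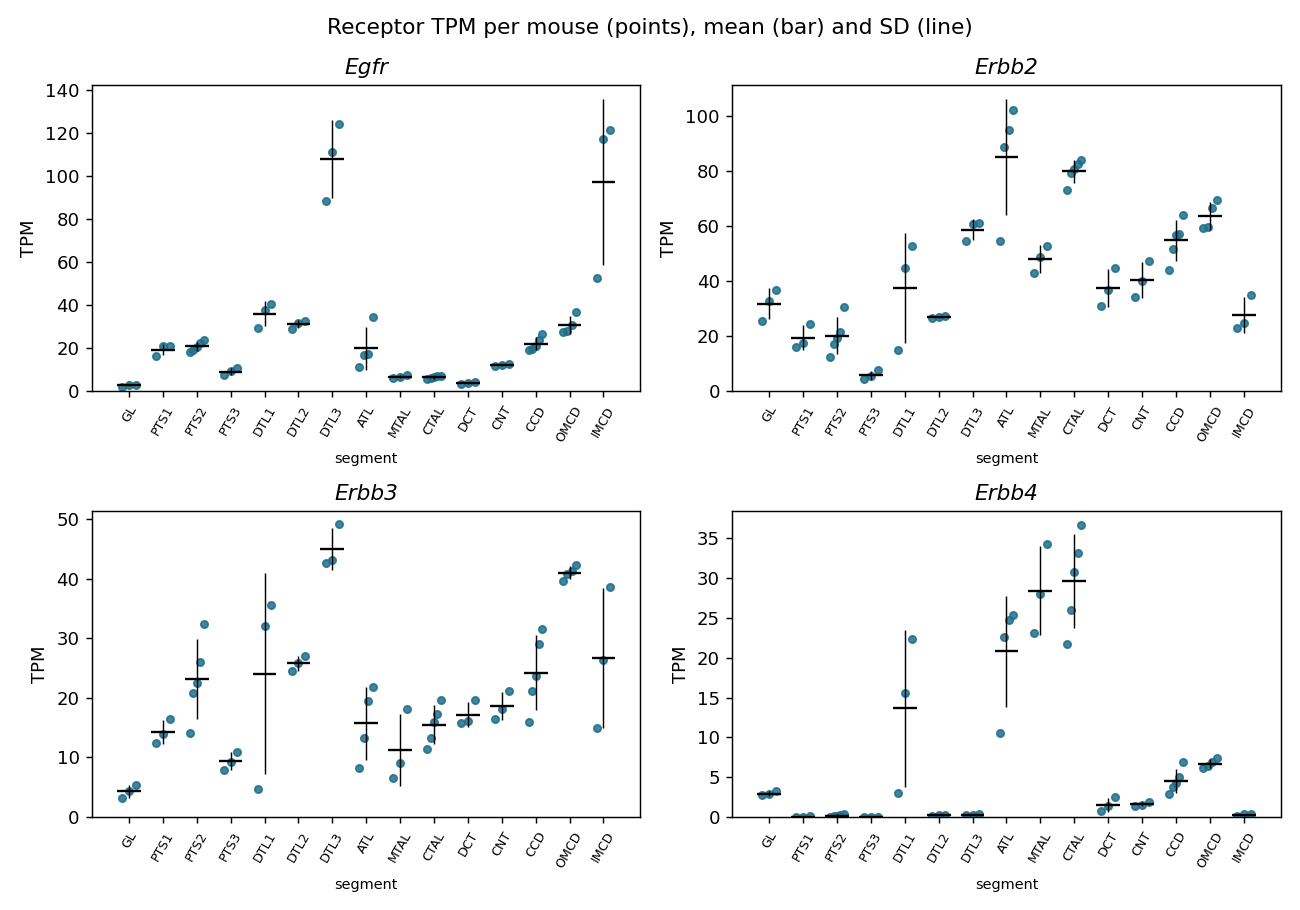
TPM of the 4 receptors in each mouse (points) by group, with the mean (horizontal bar) and SD (vertical line), each panel on its own scale from 0. Egfr peaked in DTL3 (107.9 TPM) and IMCD (97.2 TPM), where the Erbb4 means were 0.248 and 0.274 TPM, and Erbb4 in CTAL (29.7 TPM), where Egfr was 6.49 TPM.

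The mix of receptor mRNA therefore differed along the tubule. The share of each receptor in the summed TPM of the 4 was taken per mouse. Egfr made up 63.5 ± 5.9% in IMCD and 50.7 ± 4.3% in DTL3, 33.5% to 37.7% on average in the proximal groups and DTL2, and 4.94 ± 0.71% in CTAL. In DTL1 it was 27.4% in mouse 1, 22.4% in mouse 3 and 64.4% in mouse 5, the mouse that stood apart above. Erbb2 made up the largest share in GL (76.1 ± 2.9%) and in every group from ATL to OMCD, with means of 44.7% to 62.4%. Erbb3 had its largest shares in PTS3 (39.2 ± 8.0%) and PTS2 (35.5 ± 3.2%). Erbb4 reached 29.9 ± 1.7% in MTAL, 22.4 ± 2.5% in CTAL and 15.5 ± 7.3% in ATL. In the 3 MTAL mice the Erbb4 share was 28.0% to 31.0% and in the 3 IMCD mice 0.138% to 0.186%. The summed receptor TPM itself was 24.0 ± 1.3 in PTS3, 131 ± 12 in CTAL and 212 ± 18 in DTL3.

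**Figure D3:**
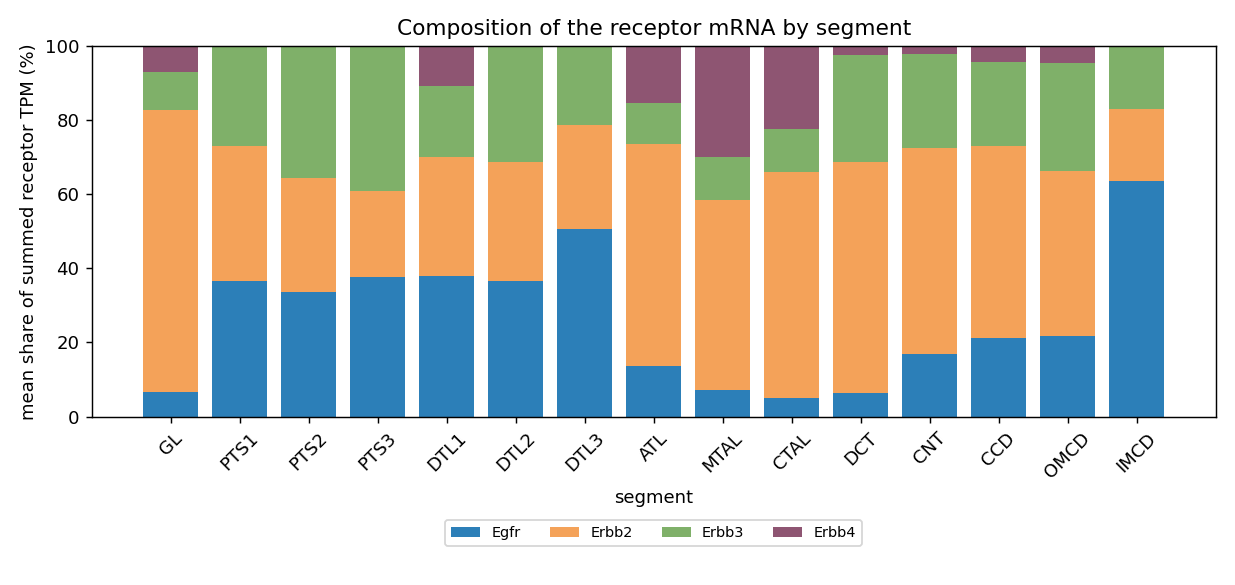
Mean share (%) of Egfr, Erbb2, Erbb3 and Erbb4 in their summed TPM, 1 stacked bar for each of the 15 groups. Erbb2 fills 76.1% of the GL bar and 61.0% of the CTAL bar, Egfr 63.5% of the IMCD bar, and Erbb4 is visible mainly from ATL to CTAL and in DTL1.

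Egf, the ligand that gives the family its name, was the most abundant member by far in 3 adjoining groups. CTAL mice had 14101 to 19386 TPM with a median of 15608 TPM (16508 ± 2260, n = 5). MTAL mice had 3858, 3027 and 1842 TPM, and DCT mice 3611, 1912 and 2878 TPM. Every CTAL mouse lay above every MTAL and DCT mouse, and the MTAL and DCT ranges overlapped. CTAL exceeded MTAL by 2.56 log2 units (SE 0.36, intersection-union adjusted p = 1.38e-05), and MTAL and DCT differed by 0.05 (SE 0.40, adjusted p = 1). MTAL thus held 17.6% and DCT 17.0% of the CTAL level. Both edges of the Egf stretch were steep: ATL lay 8.43 log2 units below MTAL (SE 0.37, adjusted p = 5.08e-23) and CNT 9.74 below DCT (SE 0.40, adjusted p = 3.08e-23). In DCT Egf was at 11.6% to 21.9% of its CTAL mean. Of the thick limb genes, Umod was at 3.68% to 5.88% of its own CTAL mean in the same mice, and the transporter gene Slc12a1, at 1.29 to 72.3 TPM, at 0.021% to 1.18%. The exons of Egf overlap those of 2 transcripts on the opposite strand, with group means of at most 28.2 and 65.6 TPM, both highest in CTAL. All 8 leukocyte markers were at 1 TPM or more on average in CTAL. Cd74 led, at 600 TPM against 321 TPM in MTAL and 256 TPM in DCT. Lyz2 was lower in CTAL (15.9 TPM) than in MTAL (66.6 TPM), and was 6.19 TPM in DCT. The other leukocyte markers had higher means in CTAL than in MTAL and DCT. The part of these cells in the Egf level was not tested.

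Outside that stretch Egf was low, with GL the exception. The 6 GL samples had 173.9 and 165.9 TPM in mouse 1, 141.8 and 143.7 TPM in mouse 2 and 154.3 and 192.9 TPM in mouse 3 (162.1 ± 16.8 over mice). Outside MTAL, CTAL and DCT the highest mouse of any other group was at 29.2 TPM, in DTL3. GL exceeded DTL3, the next group, by 2.496 log2 units (SE 0.40, adjusted p = 1.94e-06), and no odorant gene reached the level of Egf in GL (0% at or above). Umod, the thick limb protein uromodulin, was 0.85, 0.20 and 0.20 TPM in the same mice, and Slc12a1 was 0.65, 0.15 and 0.50 TPM. As a share of the CTAL mean, GL thus held 0.982% for Egf, 0.00113% for Umod and 0.00706% for Slc12a1. The DCT transporter gene Slc12a3 was at 0.0891% of its DCT mean. The ratio of Egf to Umod was 200 to 868 in GL, 0.374 to 0.513 in CTAL and 1.41 to 1.66 in DCT. In GL Umod, at 0.20 to 0.85 TPM, lay within the broad signal, where 316 to 730 odorant genes reached 1 TPM. Sample values in GL also came in steps of 0.1 TPM, against 0.01 TPM in tubule samples. The GL ratio is therefore not an exact fold, and the GL shares of Umod and Slc12a1 are not exact either.

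The other groups held little Egf. DTL3, DTL2 and DTL1 held 27.8 ± 1.7, 18.7 ± 1.1 and 13.4 ± 2.6 TPM, with mice of a group close together. In ATL and CNT the mice were apart. ATL mice 2 and 3, with few odorant genes, had 3.62 and 2.58 TPM, and mice 4 and 6, with many, 14.7 and 14.95 TPM. With ATL mice 2 and 3 left out, the difference between DTL3 and ATL fell from 1.84 to 0.86 log2 units and was no longer called. In CNT mouse 2 the mean of 12.0 TPM came from pieces with 1.96 and 22.05 TPM, against 0.77 and 1.13 TPM in the other 2 mice. Slc12a1 in these CNT mice was 7.42 TPM in mouse 2 and 0.04 and 0 TPM in the others. Without CNT mouse 2, Egf was higher in CCD than in CNT by 1.62 log2 units (adjusted p = 0.00628), a difference that was not called with it. PTS3 was lowest, at 0.70, 0.94 and 0.12 TPM.

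**Figure D4:**
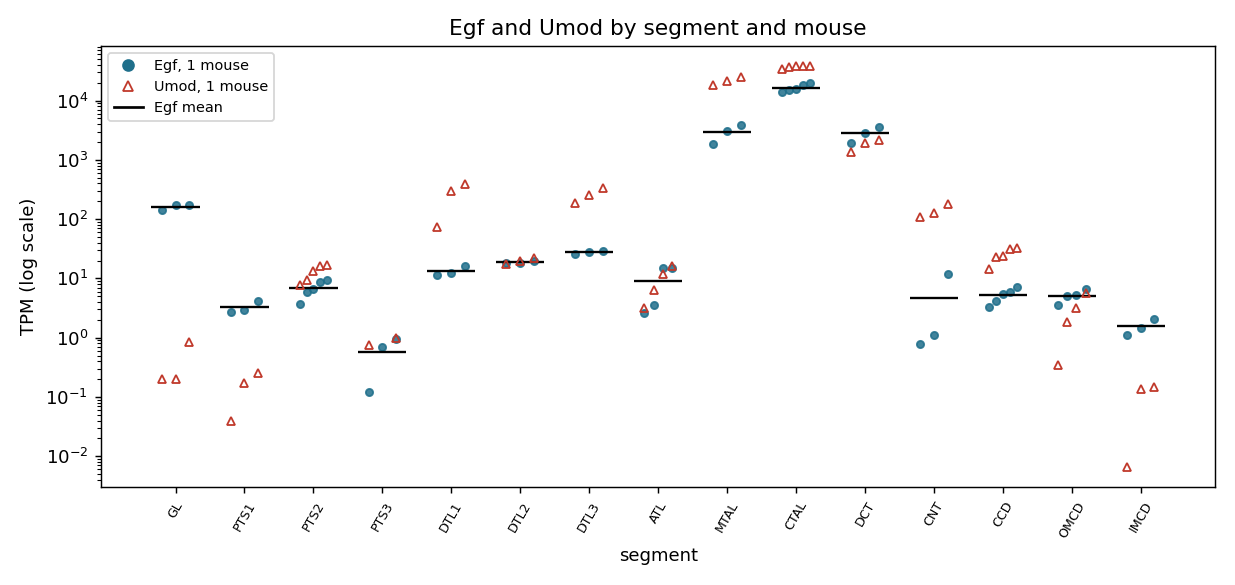
TPM on a log axis of Egf (filled circles, 1 per mouse, with bars at the group mean) and Umod (open triangles) in the 15 groups; 1 Umod value of 0 is not drawn. Both peak in CTAL, Umod at 36935 TPM and Egf at 16508 TPM, while in GL Egf (162 TPM) stands far above Umod (0.417 TPM).

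The remaining ligands followed other courses. Their summed TPM without Egf was 10.9 ± 0.8 in DCT and 245 ± 84 in OMCD. With Egf included, Egf made up 99.4% to 99.9% of ligand TPM on average in MTAL, CTAL and DCT and 62.9 ± 3.3% in GL, but 2.26 ± 1.10% in OMCD. The leading ligand other than Egf was Btc in DCT, CNT, CCD and OMCD, Tgfa in GL, Nrg1 in PTS2 and Hbegf in each other group, by the mean over mice. The leader differed in 1 mouse each of PTS3 and IMCD, where it was Tgfa, of MTAL, where it was Nrg1, and of PTS2, where it was Hbegf. In PTS3 Hbegf was 14.3, 2.89 and 7.21 TPM against 5.91, 6.82 and 4.33 TPM for Tgfa, so its lead there rests on mouse 1.

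Btc (betacellulin) rose stepwise along the distal nephron. DCT mice had 5.36, 4.95 and 5.13 TPM, CNT mice 28.2, 48.8 and 24.1 TPM, CCD mice 64.2 to 113.8 with a median of 94.6 TPM, and OMCD mice 138.95, 317.9, 158.8 and 202.3 TPM. None of these ranges overlapped. The steps were 2.44 (SE 0.27), 1.42 (SE 0.24) and 1.14 (SE 0.22) log2 units, with adjusted p of 1.78e-09, 1.68e-04 and 1.58e-04. IMCD then fell to 2.62, 2.19 and 1.73 TPM, 5.98 log2 units below OMCD (SE 0.25, adjusted p = 1.03e-23). Outside CNT, CCD and OMCD Btc stayed at or under 5.83 TPM in every mouse. The margin of OMCD over CCD was 1.14 (intersection-union adjusted p = 0.00295). It was not called without OMCD mouse 2, which is a single piece (0.90, adjusted p = 0.0840), nor after median ratio rescaling (0.94, adjusted p = 0.0532). With a pseudocount of 0.1 its size was 1.15 and its adjusted p 1, and the step from CNT to CCD, at 1.44, had an adjusted p of 0.133. The summed markers of intercalated cells (6 genes) were 5189 to 5913 TPM in CNT mice and 4058 to 5297 TPM in CCD mice. OMCD mice had 2982 to 4006 TPM and IMCD mice 0.497 to 5.46 TPM. Slc4a1 and Aqp6 of that list rose from CNT (means of 468 and 106 TPM) to OMCD (1582 and 666 TPM), while its other genes fell. Summed principal cell markers were 27386 to 31630 TPM in IMCD mice. Among them, Aqp2 rose from a mean of 6186 TPM (CNT) through 14003 TPM (CCD) to 26774 TPM (OMCD). Aqp3, Aqp4 and Avpr2 also rose at both steps, but Scnn1b and Scnn1g fell from CCD to OMCD. Whether the numbers of either cell type bear on the Btc levels was not tested.

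Tgfa, an Egfr ligand, was highest in GL, at 47.6, 59.95 and 55.7 TPM (54.4 ± 6.3). IMCD (20.6, 25.4 and 27.2 TPM), OMCD (17.9, 24.6, 20.7 and 22.7 TPM) and DTL3 (20.1, 14.1 and 21.3 TPM) overlapped one another and lay below every GL mouse. The podocyte, endothelial, stromal and erythroid marker sums were also highest in GL, with the stromal gene Pdgfrb at 282 TPM and the erythroid gene Hbb-bs at 212 TPM. Of the stromal genes, Dcn was highest in CNT (71.2 against 7.47 TPM in GL) and Col3a1 in DTL1 (13.2 against 4.08 TPM). The other stromal genes were highest in GL. The leukocyte genes Lyz2 (355 TPM in GL), Ptprc, Cd52 and Tyrobp were highest in GL. Cd74, C1qa and C1qb, also of the leukocyte list, were highest in CTAL, and Csf1r in DTL1. The part of these cell types in the Tgfa level was not tested. The margin of GL over IMCD was 1.16 log2 units (SE 0.36, intersection-union adjusted p = 0.0273). It was lost without GL mouse 2 (1.08, adjusted p = 0.111), GL mouse 3 (1.13, adjusted p = 0.0765), IMCD mouse 1 (1.03, adjusted p = 0.128) or IMCD mouse 2 (1.18, adjusted p = 0.0591), and after median ratio (0.65) or quantile rescaling (0.68). With a pseudocount of 0.1 its size was 1.19 and its adjusted p 0.432. Tgfa rose from CNT (4.12 ± 0.995 TPM) to CCD (12.1 ± 2.7 TPM) by 1.36 log2 units (SE 0.32, adjusted p = 0.0101). It missed the threshold without CNT mouse 3 (1.21, adjusted p = 0.145) and with pseudocounts of 0.1 (1.54, adjusted p = 0.196) and 5 (0.90). In MTAL, CTAL and DCT no mouse exceeded 0.315 TPM, so Tgfa was at its lowest in the groups where Egf was at its highest, as the panels of single ligands show. PTS1 was also low, at 0.40 to 0.59 TPM, and PTS2 higher by 1.997 log2 units (SE 0.32, adjusted p = 2.38e-06). ATL was again divided, with 1.07 TPM in mouse 2 and 0.13 TPM in mouse 3 against 7.91 TPM in mouse 4 and 4.69 TPM in mouse 6. The difference between ATL and MTAL, 1.51 log2 units with all mice, was 0.40 (adjusted p = 0.279) without mice 4 and 6.

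Hbegf, a ligand of Egfr and Erbb4 and an early-response gene in many tissues, was above 2 TPM in every mouse. DTL1 had 63.5, 69.1 and 61.0 TPM, DTL3 40.7, 65.2 and 32.0 TPM, GL 40.6, 34.7 and 34.9 TPM and ATL 34.4, 46.2, 26.7 and 30.0 TPM. The ranges of DTL1 and DTL3 overlapped (log2 difference 0.54, SE 0.35, adjusted p = 0.221). DCT was lowest, at 3.99, 3.13 and 3.40 TPM, and CTAL exceeded it by 1.27 log2 units (SE 0.31, adjusted p = 0.00375). CNT was in turn 1.85 above DCT (SE 0.35, adjusted p = 9.81e-05). Summed early-response genes (12 genes, with Fos, Jun and Egr1) were 1180 to 2223 TPM in DTL1, 304 to 8886 in DTL3, 1330 to 2215 in GL, 531 to 929 in ATL, 778 to 1544 in DCT, 1281 to 7768 in CCD and 61.7 to 184 in the proximal groups. From DCT to CNT 3 of these 12 genes rose and 1 fell, against 3.7% and 1.52% of all genes. The list median was 1.78 log2 units higher in CNT. Between DTL2 and DTL3, 3 were higher in DTL3 and 0 in DTL2 (6.08% and 3.5%), with a median 1.70 higher in DTL3. From CTAL to DCT 1 rose and 1 fell (2.01% and 2.34%), with a median 0.62 higher in DCT. Hbegf was called in these 3 contrasts. From CCD to OMCD 7 of the 12 fell and 0 rose (1.73% and 10.4%), with a median 1.79 higher in CCD. Between DTL3 and ATL, 5 were higher in DTL3 and 0 in ATL (11.8% and 2.86%), with a median 1.72 higher in DTL3. Hbegf was called in neither of these, at 0.61 and 0.38 log2 units. The endothelial marker sums given above were highest in GL and DTL1. The part of either list in the Hbegf levels was not tested.

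Nrg1, the neuregulin, stayed at or under 20.35 TPM. PTS2 mice had 9.63 to 18.5 with a median of 13.1 TPM, and DTL1 mice 17.4, 5.09 and 20.4 TPM. PTS2 lay above every PTS1 mouse (1.58 to 2.34 TPM) and every PTS3 mouse (3.46 to 4.77 TPM), by 2.22 (SE 0.32, adjusted p = 2.73e-07) and 1.47 log2 units (SE 0.32, adjusted p = 5.46e-04). CCD lay at 9.52 ± 3.77 TPM and OMCD at 2.61 ± 0.82 TPM, a step of 1.51 (SE 0.29, adjusted p = 1.43e-04). IMCD was lowest, at 0.62, 0.75 and 0.43 TPM. Areg (amphiregulin) was listed at 0 in 71 of the 93 samples and reached at most 0.58 TPM, in 1 piece of CNT mouse 3. It missed the 1 TPM filter, and in the fit with no filter, over 47718 genes, its F-test gave an adjusted p of 0.505.

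**Figure D5:**
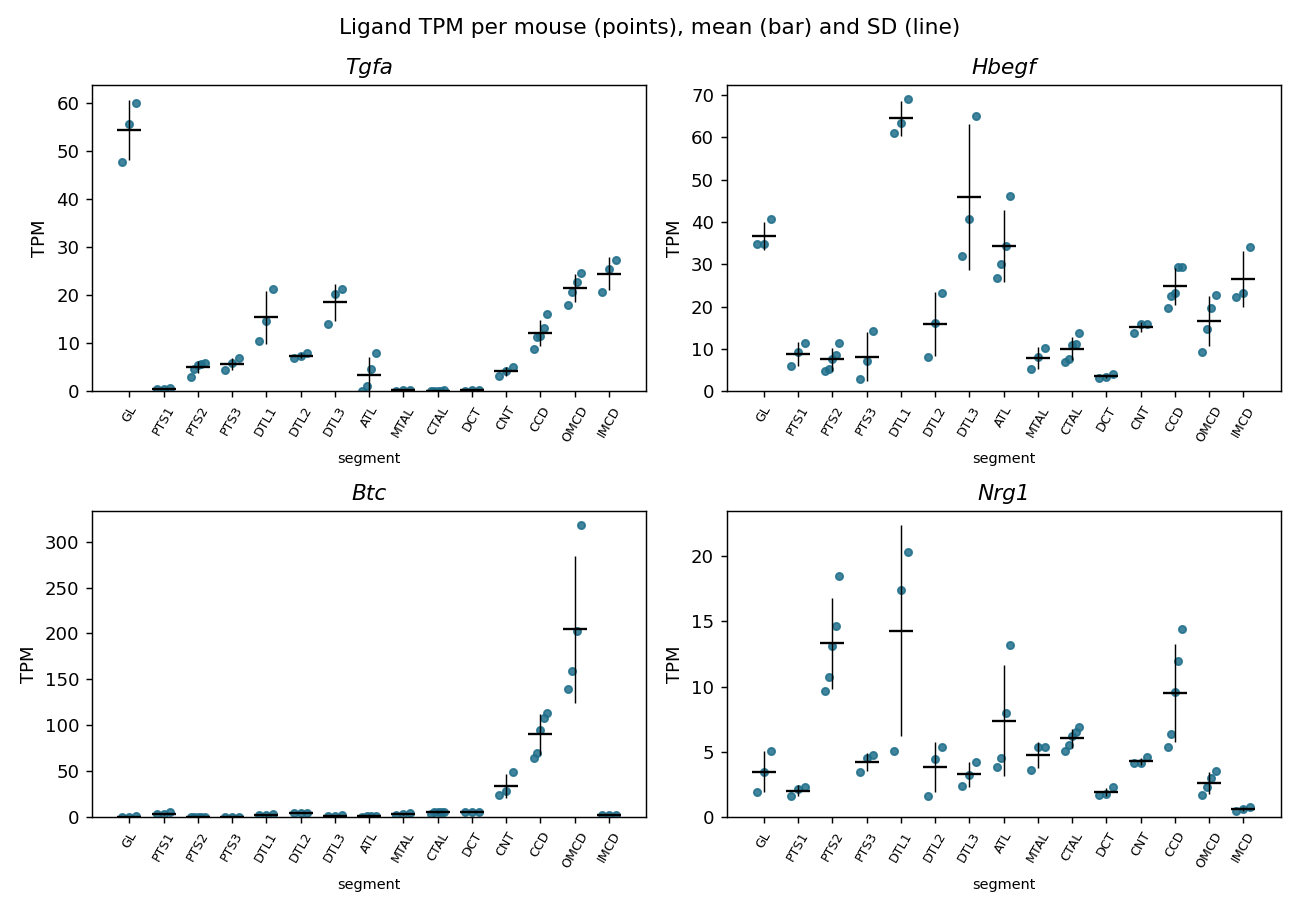
TPM of Tgfa, Hbegf, Btc and Nrg1 in each mouse (points) by group, with the mean (horizontal bar) and SD (vertical line), each panel on its own scale from 0. Tgfa is highest in GL (54.4 TPM), Hbegf in DTL1 (64.5 TPM), Btc climbs from CNT (33.7 TPM) to OMCD (204 TPM), and Nrg1 has means of 13.3 TPM in PTS2 and 14.3 TPM in DTL1.

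Between neighbouring segments, 62 of the 126 possible gene and contrast pairs were called (adjusted p under 0.05 and at least 1 log2 unit), against 17.5% of such pairs over all genes. From MTAL to CTAL 1 of the 9 members rose, Egf, and 0 fell, where 2.57% of all genes rose and 0.589% fell. From CTAL to DCT 5 fell and 0 rose (Egf, Erbb4, Erbb2, Hbegf and Nrg1), where 2.34% of all genes fell and 2.01% rose. The Erbb2 fall of 1.09 log2 units was 0.96 without DCT mouse 2 and 0.97 after median ratio or quantile rescaling. With a pseudocount of 5 the Hbegf fall was 0.81 and the Nrg1 fall 0.67, both under 1, and the Nrg1 fall missed the threshold after quantile normalization (1.03, adjusted p = 0.0826). From DCT to CNT 1 fell, Egf, and 4 rose, Egfr, Tgfa, Hbegf and Btc, against 1.52% and 3.7% of all genes. The rises of Egfr (0.97) and Tgfa (0.79) were under 1 with a pseudocount of 5. From CNT to CCD Erbb4, Tgfa and Btc rose and 0 fell, against 0.681% and 0.438%. The Erbb4 rise of 1.07 log2 units had an adjusted p of 0.0453, close to the threshold. It missed that threshold when any of 35 of the 53 mice was left out, with its size between 0.94 (without CCD mouse 4) and 1.19 over all 53 and an adjusted p of up to 0.270 (without CNT mouse 3). It also missed it with pseudocounts of 5 (0.52, adjusted p = 0.310) and 0.1 (1.44, adjusted p = 0.0658) and after quantile (0.69, adjusted p = 0.708) or median ratio rescaling (0.95, adjusted p = 0.0819). With no filter, with pieces averaged as TPM and with the mouse number as a block its adjusted p was 0.0618, 0.0572 and 0.0506. From CCD to OMCD Btc rose and Nrg1 fell, against 10.4% and 1.73%, and the Nrg1 fall was 0.90 with a pseudocount of 5. The Btc rise of 1.14 log2 units was under 1 after median ratio rescaling (0.94) and without OMCD mouse 2 (0.90). From OMCD to IMCD Egf, Erbb2, Erbb4, Btc and Nrg1 fell, against 15.2% of all genes. Egfr rose, by 1.52 log2 units (SE 0.22, adjusted p = 2.48e-07), as 3.4% of all genes did. A rise of Hbegf was called as well after median ratio (1.004, adjusted p = 0.0167) and quantile rescaling (1.22, adjusted p = 0.00199). The falls of Egf, Erbb2 and Nrg1 were under 1 after median ratio rescaling, at 0.96, 0.86 and 0.89 log2 units, and after quantile normalization, at 0.58, 0.91 and 0.39. With a pseudocount of 5 those of Egf and Nrg1 were 0.64 and 0.44.

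In the proximal tubule Tgfa and Nrg1 were higher and Btc lower in PTS2 than in PTS1, against 5.1% and 4.46% of all genes. Those of Tgfa (0.85) and Btc (0.72) were under 1 with a pseudocount of 5. PTS2 exceeded PTS3 for 5 members, Egf, Egfr, Erbb2, Erbb3 and Nrg1, and 0 went the other way, against 3.94% and 0.755% of all genes. The Erbb3 difference of 1.18 log2 units (adjusted p = 0.0159) kept its size but missed the threshold without PTS2 mouse 4 (1.05, adjusted p = 0.0545), PTS3 mouse 1 (1.08, adjusted p = 0.0838) or PTS3 mouse 3 (1.18, adjusted p = 0.0557). After quantile normalization it was 0.71 (adjusted p = 0.408), and with a pseudocount of 5 it was 0.94, under 1. The Egfr call, at 1.12 log2 units, ended with a pseudocount of 5 (0.88) and after median ratio (0.99) or quantile rescaling (0.66). The Nrg1 call ended with a pseudocount of 5 (0.98) and after quantile normalization (1.01, adjusted p = 0.0566). DTL1 exceeded PTS3 for 8 of 9 members, and 61.8% of all genes did so too, with 3.75% the other way. DTL2 exceeded PTS3 for 5 of 9, with 36.2% and 3.85% of all genes. The members' differences from PTS3 therefore ran with those of all genes, whose median was itself displaced by 1.33 log2 units against DTL1 and 0.71 against DTL2. Against DTL1, the calls of Egfr (0.56), Tgfa (0.01) and Nrg1 (0.16) ended after median ratio rescaling, and those of Egfr (0.43), Erbb2 (0.64) and Btc (0.15) after quantile normalization. With a pseudocount of 5, Tgfa (0.94), Btc (0.58) and Nrg1 (0.97) were under 1. Against DTL2, the calls of Egfr, Erbb2 and Erbb3 ended at 0.52, 0.97 and 0.22 after median ratio rescaling and at 0.48, 0.83 and 0.17 after quantile normalization, and that of Btc at 0.85 with a pseudocount of 5. Nrg1 was then called higher in PTS3 than in DTL2, by 1.21 (adjusted p = 0.00511) after median ratio and 1.74 (adjusted p = 5.50e-04) after quantile rescaling. After quantile normalization Tgfa was also higher in PTS3 than in DTL1 and DTL2, and Nrg1 higher in PTS3 than in DTL1 by 0.72 log2 units, which was not called. Erbb3, the member not called against DTL1, was called without DTL1 mouse 5 (1.75 log2 units, adjusted p = 8.16e-06). Against DTL2, Hbegf (0.99, not called) was called higher in DTL2 with a pseudocount of 0.1 (1.11, adjusted p = 0.00980). It was also called without PTS3 mouse 1 (1.47), PTS3 mouse 3 (1.01) or DTL2 mouse 3 (1.40). Erbb4 was called higher in DTL2 than in PTS3 with a pseudocount of 0.1 (1.63, adjusted p = 0.00139).

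Within the thin limbs, DTL1 exceeded DTL2 for Erbb4, Tgfa, Hbegf and Nrg1 and 0 went the other way (25.2% and 2.99% of all genes). The Tgfa difference of 1.02 log2 units was lost without DTL1 mouse 5 (0.76, adjusted p = 0.112) or DTL2 mouse 2 (0.99). It was also under 1 with the mouse number as a block (0.90), with pieces averaged as TPM (0.91) and with all samples taken as independent (0.89), and the call ended with pseudocounts of 5 (0.73) and 0.1 (1.12, adjusted p = 0.114) and after median ratio (0.75) or quantile rescaling (0.43). Quantile normalization also ended the Nrg1 call (1.02, adjusted p = 0.0658), and Egf and Btc were then called higher in DTL2, by 1.40 (adjusted p = 0.00220) and 1.34 (adjusted p = 1.36e-04). DTL3 exceeded DTL2 for Egfr, Erbb2, Tgfa and Hbegf (6.08%). The Erbb2 call ended after median ratio rescaling (0.94), and that of Tgfa with pseudocounts of 0.1 (1.44, adjusted p = 0.0753) and 5 (0.96). DTL2 exceeded DTL3 for Btc (3.5%), by 1.12 log2 units, by 0.98 without DTL3 mouse 2 and by 0.52 with a pseudocount of 5. DTL3 exceeded ATL for Egf, Egfr, Erbb3 and Tgfa (11.8%), with Erbb4 the other way (2.86%). The Egf call ended without ATL mice 2 and 3 (0.86), and Nrg1 was called higher in ATL after median ratio (1.07) and quantile rescaling (1.31) and with a pseudocount of 0.1 (1.03), as was Btc in DTL3 with that pseudocount (1.42). ATL exceeded MTAL for Egfr, Tgfa and Hbegf (22.6%), and MTAL exceeded ATL for Egf and Btc (5.43%). The Egfr difference of 1.33 log2 units was 0.93 without ATL mice 2 and 3, and 0.94 after median ratio and 0.61 after quantile rescaling. Erbb2, not called at 0.79 log2 units, was called higher in ATL without ATL mice 4 and 6 (1.03, adjusted p = 0.00496). The Tgfa difference was 0.60 after quantile normalization, and with a pseudocount of 5 those of Tgfa and Btc were 0.61 and 0.60.

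The split of all calls by direction moved with the scaling. Higher in the first group of each contrast were 5.73% of calls for PTS3 against DTL1, and 20.0% after median ratio and 47.7% after quantile rescaling. For PTS3 against DTL2 these shares were 9.62%, 31.4% and 45.1%, for DTL2 against DTL3 36.5%, 55.3% and 57.6%, and for DTL3 against ATL 80.5%, 64.6% and 58.9%. They were 80.7%, 66.6% and 42.8% for ATL against MTAL, 29.1%, 47.4% and 45.9% for DCT against CNT, and 39.2%, 50.9% and 58.4% for CNT against CCD. They were 14.3%, 24.3% and 56.5% for CCD against OMCD, 81.7%, 62.1% and 46.1% for OMCD against IMCD, and 83.9%, 63.4% and 65.6% for PTS2 against PTS3. Median ratio rescaling moved PTS1 against PTS2 from 46.6% to 62.7%, and quantile normalization moved DTL1 against DTL2 from 89.4% to 42.5%. The split also moved with the pseudocount and the mice kept. With a pseudocount of 0.1, 77.3% of calls for PTS1 against PTS2 were higher in PTS1. For DTL3 against ATL the share was 46.8% without ATL mice 2 and 3 and 90.8% without mice 4 and 6. For ATL against MTAL it was 86.8% and 64.6%. Among the called differences of the members, those of Tgfa and Nrg1 between PTS3 and DTL1 changed direction under quantile normalization.

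Other genes of the pathway were taken from fixed lists of 58 genes, of which 57 were tested. All 57 differed among the groups by the F-test, as 93.9% of all genes did, and 8 were higher in 1 group than in every other (8.8% of all genes), 5 of them in GL (3.22%), 2 in DCT (0.21% of all genes) and 1 in DTL1 (2.9%). Of the 5 ligands outside the set, Nrg2, a second neuregulin, was at 11.5 TPM in DTL1 and at most 1.01 TPM elsewhere on average, with a margin of 2.63 log2 units (intersection-union adjusted p = 2.49e-17). Nrg4, a ligand of Erbb4, had its highest level in PTS3, at 7.22 TPM, where Erbb4 was listed at 0. Its margin there, 0.55 log2 units over the next group, was not called. Epgn, not tested, was at most 0.083 TPM in any group mean and Ereg at most 1.99 TPM, in DTL2.

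Of the 8 genes of ligand shedding, 6 were higher in PTS2 than in PTS3 and 0 lower, against 3.94% and 0.755% of all genes, with a list median of 1.16 log2 units where that of all genes was 0. In ATL 5 were higher and 1 lower than in MTAL, against 22.6% and 5.43%. From MTAL to CTAL 2 rose (2.57% of all genes), Adam10 by 1.10 and Adam9 by 1.04 log2 units, both metalloproteases. From OMCD to IMCD 3 fell (15.2%), among them Timp3, an inhibitor of Adam17, by 2.92 log2 units from 228 to 35.2 TPM. Rhbdf2, which guides Adam17 to the cell surface, and Adam12 were highest in GL (margins 1.07 and 1.40, adjusted p = 0.0259 and 0.00116).

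Of the 11 adaptors, 10 were higher in DTL1 and 9 in DTL2 than in PTS3, as 61.8% and 36.2% of all genes were, and 4 were higher in PTS2 than in PTS3 (3.94%). In ATL 3 were higher than in MTAL (22.6%). From CTAL to DCT 1 fell (2.34%), and from OMCD to IMCD 4 fell (15.2%). Of the 13 cascade genes, 8 were higher in DTL1 and 8 in DTL2 than in PTS3, and 1 fell from OMCD to IMCD. The adaptor Grb7, which binds ErbB receptors, was 68.9 to 193 TPM in the tubule groups and 4.82 TPM in GL.

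Of the 15 feedback inhibitors, 3 rose and 0 fell from MTAL to CTAL, against 2.57% and 0.589% of all genes. From CTAL to DCT 3 fell and 1 rose, against 2.34% and 2.01%. Errfi1 (Mig6), an inhibitor of Egfr kinase, was 279, 191 and 96.6 TPM in PTS1, PTS2 and PTS3 and 168 TPM in DTL3, but 6.11 TPM in IMCD, the other group with high Egfr. From OMCD to IMCD 4 of the 15 fell and 1 rose, against 15.2% and 3.4% of all genes. Errfi1 fell there by 1.34 log2 units and Spry1 by 3.43, while Dusp6, which inactivates the kinase ERK, rose by 2.46 from 3.94 to 26.7 TPM. Socs3, Spry4 and Spred2 were highest in GL, with margins of 3.17, 2.38 and 2.08 log2 units.

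Of the 6 magnesium genes, 4 were higher and 1 lower in DCT than in CTAL, against 2.01% and 2.34% of all genes. Trpm6, the channel stimulated by Egf, was 69.5 TPM in DCT and 0.14 TPM in CTAL, and Cnnm2 122 and 9.81 TPM. Both were higher in DCT than in every other group, by 2.34 and 2.88 log2 units (adjusted p = 6.31e-11 and 1.75e-11). Egfr was 3.80 ± 0.48 TPM in the same DCT mice, its second lowest group.

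For each tested member, the 3 genes closest in their group means were found among 11996 candidates by Pearson's r over the 15 groups. These r are descriptions across groups that share the same libraries. Closest to Egf were Col5a2 (r = 0.952), Perm1 (0.943) and Abca13 (0.941), and closest to Btc were Tceal5 (0.941), Aqp6 (0.930), an aquaporin of intercalated cells, and Trav3-4 (0.926). Egfr was nearest to Car5b (0.911), Cdk18 (0.892) and Arhgap27os2 (0.872). Erbb2 was nearest to Zscan29 (0.939), Zfp661 (0.919) and Zbtb5 (0.918), and Erbb3 to Faah (0.908), Dclk3 (0.903) and Met (0.892), the receptor of hepatocyte growth factor. Erbb4 was nearest to Upk1a (0.902), Ifit1bl1 (0.878) and Slc38a1 (0.861). The nearest to Tgfa were Kctd11 (0.925), Zfp623 (0.915) and Mdp1 (0.914), to Hbegf Ptma (0.954), Npc1 (0.935) and Rpp30 (0.934), and to Nrg1 Eif5 (0.853), H2afy (0.742) and Epdr1 (0.740). Among the members themselves, over 15 groups, r was 0.778 for Egfr with Erbb3, 0.683 for Erbb2 with Erbb4 and -0.569 for Egf with Egfr.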

How the data were processed

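Per the submitters' processing notes, STAR 2.5.4a, RSEM 1.3.0, Cell Ranger 3.0.2 and Seurat were used, with no role given; the genome build, annotation and use of strand are not given in the sources used here. Per the labels' protocols, RNA was extracted with Direct-zol kits and libraries were made with SMARTer V4 and Nextera XT. The authors deposited TPM for 54532 genes in 93 samples, with column sums of 999999 to 1.00019e+06. Read depth is unknown, and no counting interval is given. Another 3 samples, from 10X runs, were not analysed here. A PTS2 column whose name fits none of the sample titles was kept as an unnumbered PTS2 mouse.

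Pieces of 1 mouse number and segment were averaged as log2(TPM + 1). Printed TPM are plain means over pieces, except in the receptor shares and the summed receptor TPM. Those were taken from the averaged log2 values turned back to TPM. Genes at 1 TPM or more in at least 3 mice were kept (33793). limma 3.58.1 (R 4.3.3; lmFit, eBayes with a trend) was fitted to all 15 groups, with Benjamini-Hochberg adjustment over all kept genes, a threshold of 0.05 and a log2 difference of at least 1; the intersection-union test took the largest one-sided p over the other 14 groups. Log2 differences are on the log2(TPM + 1) scale, which understates the change of low genes. The code was tested on simulated data. Tables were made with pandas 2.3.3 and numpy 2.4.6, and figures with matplotlib 3.10.9, under Python 3.11.15. Named genes are the 10 members, the listed pathway and early-response genes, and the 3 genes nearest to each tested member among genes reaching a group mean of 10 TPM, passing over predicted, Rik, mitochondrial, ribosomal and pseudogene names. The members and lists were chosen with earlier results of these data known. The counts of calls, the margins and the differences between segments were recomputed with a pseudocount of 0.1 or 5, no filter or one at 5 TPM, protein-coding genes alone, median ratio and quantile rescaling, other ways of averaging pieces, the mouse number as a block and leaving out each mouse.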

Additional observations from a re-analysis of the deposited data

Results flagged for a closer look

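Each member was checked in the groups of 4 or 5 mice for a mouse far from the others (Dixon's test, 49 gene and group pairs), and 4 pairs had one; chance gives about 1 in 20 of groups without ties. Btc in PTS2 mouse 1 was 0.44 TPM, with the nearest other mouse at 0.21 TPM. Areg was 0.33 TPM in ATL mouse 4, 0.05 TPM in OMCD mouse 1 and 0.015 TPM in PTS2 mouse 3, with every other mouse of those groups listed at 0. With the other values at 0, the test marks any value above 0, so these 3 say nothing about how far the mouse lies from the rest.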

How the results depend on the processing

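The count of members differing among groups was 9 under each setting run. Members higher in 1 group than in every other numbered 3, and 1 with a pseudocount of 0.1; leaving out 1 mouse gave 2 to 3. Calls between neighbouring segments numbered 62 for the members, 39 with a pseudocount of 5 and 60 to 63 with 1 mouse left out. Over the 6 contrasts from MTAL to IMCD they numbered 22, also when fitted without GL and the thin limbs (chosen after seeing the data), and 13 with a pseudocount of 5. Pathway calls numbered 203, and 128 after quantile normalization. Quantile normalization also turned 3 differences around: PTS3 exceeded DTL1 for Tgfa by 0.67 (adjusted p = 0.0118) and for Nrg1 by 0.72 (adjusted p = 0.136), and PTS3 exceeded DTL2 for Tgfa by 1.10 (adjusted p = 9.16e-05). In these contrasts the median of all genes was displaced by -1.33 and -0.71 log2 units. Median ratio rescaling ended the calls for the margins of Btc in OMCD (0.94, adjusted p = 0.0532) and Tgfa in GL (0.65), and brought that of Nrg1 in PTS2 past the threshold (1.19, adjusted p = 0.0363). The cause of these changes was not tested. Of 1584 recomputed differences between neighbouring segments 1492 kept direction and call, and of 6678 with a mouse left out 6625 did. Mouse numbers were not taken to pair samples across segments: same-numbered mice had a median correlation of deviations of 1.85e-04 over 290 pairs (19 above 0.1). With the mouse number as a replicate block, neighbouring calls were 61 for members (Erbb4 from CNT to CCD and Tgfa between DTL1 and DTL2 lost, Nrg1 between DTL3 and ATL gained) and 206 for pathway genes, and 3 members were higher in 1 group than in every other. Low levels are limited by the broad signal in GL, ATL, OMCD and the descending limbs.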
